A study of Mus musculus with 2 samples.

Results

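The 6 S100 genes S100a4, S100a6, S100a8, S100a9, S100a10 and S100a11 were followed across the cell types of inflamed mouse gum. They are 6 of the 32285 genes in the deposited tables, and are listed by name. S100 proteins are small proteins that act as dimers on other proteins, and most of them bind calcium through paired EF-hand loops. S100a8 and S100a9 pair to form calprotectin, which neutrophils store in their cytosol at very high amounts, and which withholds zinc and manganese from microbes and signals through receptors such as TLR4 once released. In the gum, calprotectin is known as a marker of periodontal inflammation, and the other 4 proteins bind annexins, myosin and further partners inside cells.

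CD11b+ cells were taken from the gingiva of mice at 12 weeks after bone marrow transplantation (BMT), after 5 days of ligature-induced periodontitis, in which a thread tied round a tooth provokes inflammation and bone loss. The 2 groups were 10% Tet2-/- BMT and 10% Tet2+/+ BMT, named for the genotype of the transplanted marrow fraction. The Tet2 protein converts 5-methylcytosine in DNA to its oxidised forms. Both groups shared the transplantation and the ligature, and neither an unligated nor an untransplanted group was analysed here. By the protocol the gate was CD45.2+CD11b+ for 10% Tet2-/- BMT and CD45+CD11b+ for 10% Tet2+/+ BMT, while both sample titles name CD45.2+CD11b+. The number of mice behind each library, their age and the part of Tet2 removed are not given in the sources used here. Which cells descend from the 10% marrow fraction is not marked in the files. Each group had 1 library, so no test between them was possible, and intervals (95%, exact) cover counting error only.

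After filtering, 9596 cells of the 10% Tet2-/- BMT library and 11672 cells of the 10% Tet2+/+ BMT library remained, with medians of 5920 and 5009 unique molecular identifiers (UMIs, each counting 1 captured transcript). The libraries shared 31 kept barcodes. They stand apart by sex: 45% of cells in the 10% Tet2-/- BMT library carried Xist without a Y-linked transcript, against 0.0257% in the 10% Tet2+/+ BMT library, where 59.0% carried Y-linked transcripts without Xist, against 5.76% in the 10% Tet2-/- BMT library. Sex of the cells, gate and transplant genotype therefore cannot be told apart. Ptprc (CD45) was detected in 94.7% of cells of 10% Tet2-/- BMT and 93.7% of 10% Tet2+/+ BMT, and Itgam (CD11b) in 76.1% and 72.7%. Itgam was found in only 37.5% and 34.7% of B cell-like cells of 10% Tet2-/- BMT and 10% Tet2+/+ BMT, and in 41.3% and 43.6% of T cell-like cells, so these lymphoid cells go against the label.

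Cells were grouped into 29 clusters with every S100 gene left out of the clustering and of the marker lists, so that no class was gated on S100a8 or S100a9. In all, 7 classes held at least 100 cells in each library and are compared here: immature neutrophil-like, neutrophil-like, monocyte-like, macrophage-like, dendritic-like, T cell-like and B cell-like cells. Levels are CPM, that is, a gene's UMIs summed over the cells of a class, divided by all UMIs of those cells and scaled to the usual CPM total. In droplet data, transcripts released by broken cells enter every droplet, and S100a8 and S100a9 are among the commonest of them. The level of each gene in free RNA, taken from barcodes with 51 to 200 UMIs, is therefore given beside the class levels.

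All 6 genes lie on mouse chromosome 3 (GRCm38, the assembly called mm10). S100a4 (ENSMUSG00000001020, bases 90603771 to 90606045), S100a6 (ENSMUSG00000001025, 90612882 to 90624181) and S100a8 (ENSMUSG00000056054, 90668978 to 90670035) are on the plus strand. S100a9 (ENSMUSG00000056071, 90692632 to 90695721) is on the minus strand, 22.6 kb from S100a8. S100a11 (ENSMUSG00000027907, 93520488 to 93526287) and S100a10 (ENSMUSG00000041959, 93555080 to 93564643) form a second group on the plus strand, 28.8 kb apart. S100a11 has a processed pseudogene, S100a11-ps, on chromosome 12 (73961142 to 73961447), so reads shared between these 2 copies make its counts uncertain.

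Promoter windows are shown for S100a8 and S100a9, whose levels went together, and for S100a4, which was high where they were low. They come from RefSeq on build GRCm38.p6, which held an entry for 5 of the 6 genes, run 5′ to 3′ on the gene's strand, and stop before the first annotated transcript start. The windows are chr3:90668821-90668977 (plus strand), chr3:90695722-90695971 (minus strand) and chr3:90603520-90603769 (plus strand).
S100a8: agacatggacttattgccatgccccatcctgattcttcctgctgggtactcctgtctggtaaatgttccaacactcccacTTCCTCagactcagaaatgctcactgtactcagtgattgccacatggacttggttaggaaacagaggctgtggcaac
S100a9: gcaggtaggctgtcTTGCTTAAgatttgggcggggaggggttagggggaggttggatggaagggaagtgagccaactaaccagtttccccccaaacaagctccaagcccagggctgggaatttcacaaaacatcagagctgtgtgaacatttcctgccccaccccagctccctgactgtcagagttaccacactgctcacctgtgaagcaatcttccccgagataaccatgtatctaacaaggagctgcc
S100a4: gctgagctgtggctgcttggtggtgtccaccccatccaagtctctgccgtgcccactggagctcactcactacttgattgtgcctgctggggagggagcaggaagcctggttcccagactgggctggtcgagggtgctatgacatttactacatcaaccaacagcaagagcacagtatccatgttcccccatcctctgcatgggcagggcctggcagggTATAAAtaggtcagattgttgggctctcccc
Capitals mark matches on either strand to 6 motifs searched: TATAAA (the TATA box), CCAAT, TTNNGCAA (bound by C/EBP factors), TGANTCA (AP-1), GAGGAA (PU.1) and the NF-kB motif. The S100a8 window of 157 bases held 1 match to GAGGAA, which 15.3% of all promoters hold over a window of that length. The S100a9 window of 250 bases held 1 match to TTNNGCAA, found in 9.56% of promoters, and the S100a4 window held TATAAA, found in 12.4%. A match is a run of letters, and binding was not measured.

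S100a8 and S100a9, the 2 chains of calprotectin, made up 29.8% of all UMIs in immature neutrophil-like cells of 10% Tet2-/- BMT and 34.0% in those of 10% Tet2+/+ BMT. In neutrophil-like cells the pair made up 21.6% and 22.7%, and in the other 5 classes between 0.878% and 3.96%. In each library, then, calprotectin took a far larger part of neutrophil transcripts than of any other compared class.

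S100a8 was at 134649 CPM (134476 to 134823) in immature neutrophil-like cells of 10% Tet2-/- BMT and 159029 CPM (158825 to 159233) in those of 10% Tet2+/+ BMT. In neutrophil-like cells it was at 90330 CPM against 98702 CPM. These were the first and second places in both libraries, and the step down to the next class was 6.15-fold in 10% Tet2-/- BMT and 5.49-fold in 10% Tet2+/+ BMT. S100a9 had the same order at the top, with 163149 CPM in 10% Tet2-/- BMT against 180615 CPM in 10% Tet2+/+ BMT in immature neutrophil-like cells, and 125261 CPM against 128548 CPM in neutrophil-like cells.

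Both chains stood above free RNA only in the neutrophil classes among the 7 compared. Free RNA held S100a8 at 38233 CPM in the 10% Tet2-/- BMT library and 38138 CPM in the 10% Tet2+/+ BMT library. Immature neutrophil-like cells stood 3.52-fold and 4.17-fold above it, and neutrophil-like cells 2.36-fold and 2.59-fold, in 10% Tet2-/- BMT and 10% Tet2+/+ BMT. Every other class lay below it, from 47.2% of the free level in B cell-like cells of 10% Tet2+/+ BMT to 9.87% in dendritic-like cells of 10% Tet2-/- BMT.

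**Figure D1:**
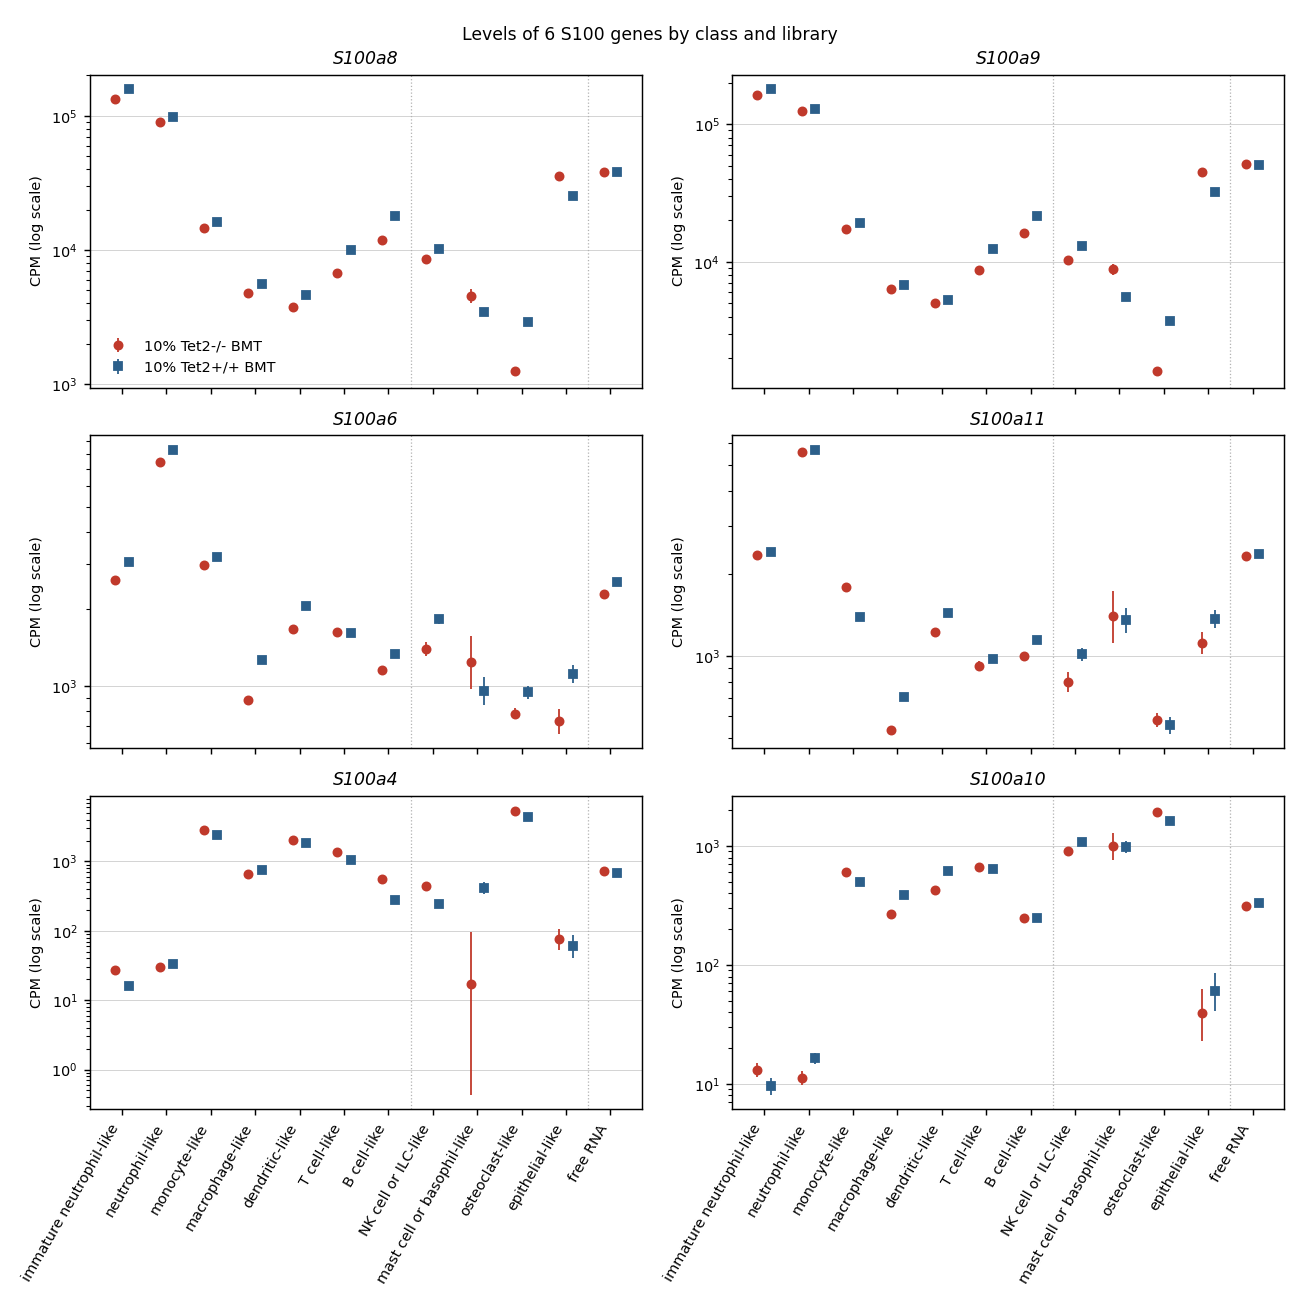
Levels of the 6 S100 genes in CPM (log axis) by class, with 10% Tet2-/- BMT as red circles left of 10% Tet2+/+ BMT as blue squares and bars for exact 95% Poisson intervals; dotted lines set off the 4 classes with under 100 cells in a library and the free RNA barcodes. S100a8 and S100a9 are highest in immature neutrophil-like cells, S100a6 and S100a11 in neutrophil-like cells among the 7 larger classes, and S100a4 and S100a10 are near 10 to 30 CPM in both neutrophil classes.

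The 9 neutrophil clusters differed among themselves. S100a8 was at 118609 CPM in 10% Tet2-/- BMT and 131773 CPM in 10% Tet2+/+ BMT in the cluster led by Elane, Mpo and Prtn3, proteases and peroxidase of the first granules that form in promyelocytes. It was highest in the larger of the 2 clusters led by Ltf, Ngp and Camp, proteins of the secondary granules, at 157920 CPM against 179399 CPM. The cluster led by Retnlg, Mmp8 and Ceacam10 had 149270 CPM against 165887 CPM. Levels were lowest in the cluster led by Ccl3, Acod1 and Il1rn, genes of activated neutrophils, at 40145 CPM against 42221 CPM. Across these 9 clusters S100a8 spanned 3.93-fold in 10% Tet2-/- BMT and 4.25-fold in 10% Tet2+/+ BMT, while S100a9 spanned 2.94-fold and 3.16-fold.

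The balance of the 2 chains shifted along the same clusters. A ratio of UMIs between genes depends on how well each transcript is captured, so only its differences between cells are read. There were 0.854 S100a8 UMIs per S100a9 UMI (0.852 to 0.856) in the Elane cluster of 10% Tet2-/- BMT and 0.930 (0.927 to 0.933) in that of 10% Tet2+/+ BMT. The Ccl3 cluster had 0.603 (0.598 to 0.608) and 0.643 (0.634 to 0.652). S100a9 transcripts were thus in greater excess in the cluster with activation genes than in the one with promyelocyte genes, in both libraries.

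The ratio was lower in 10% Tet2-/- BMT in 9 of 9 neutrophil clusters, with intervals apart in all 9. It was lower in 24 of all 29 clusters, with intervals apart in 21, and higher with intervals apart in 3. By class it was 0.825 against 0.881 in immature neutrophil-like cells and 0.721 against 0.768 in neutrophil-like cells of 10% Tet2-/- BMT against 10% Tet2+/+ BMT. Free RNA differed in the same direction, at 0.740 (0.735 to 0.744) in 10% Tet2-/- BMT and 0.754 (0.751 to 0.758) in 10% Tet2+/+ BMT, and barcodes with 1 to 50 UMIs had 0.971 and 1.047. The difference was thus also present outside cells, and its part in the class ratios was not tested.

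**Figure D2:**
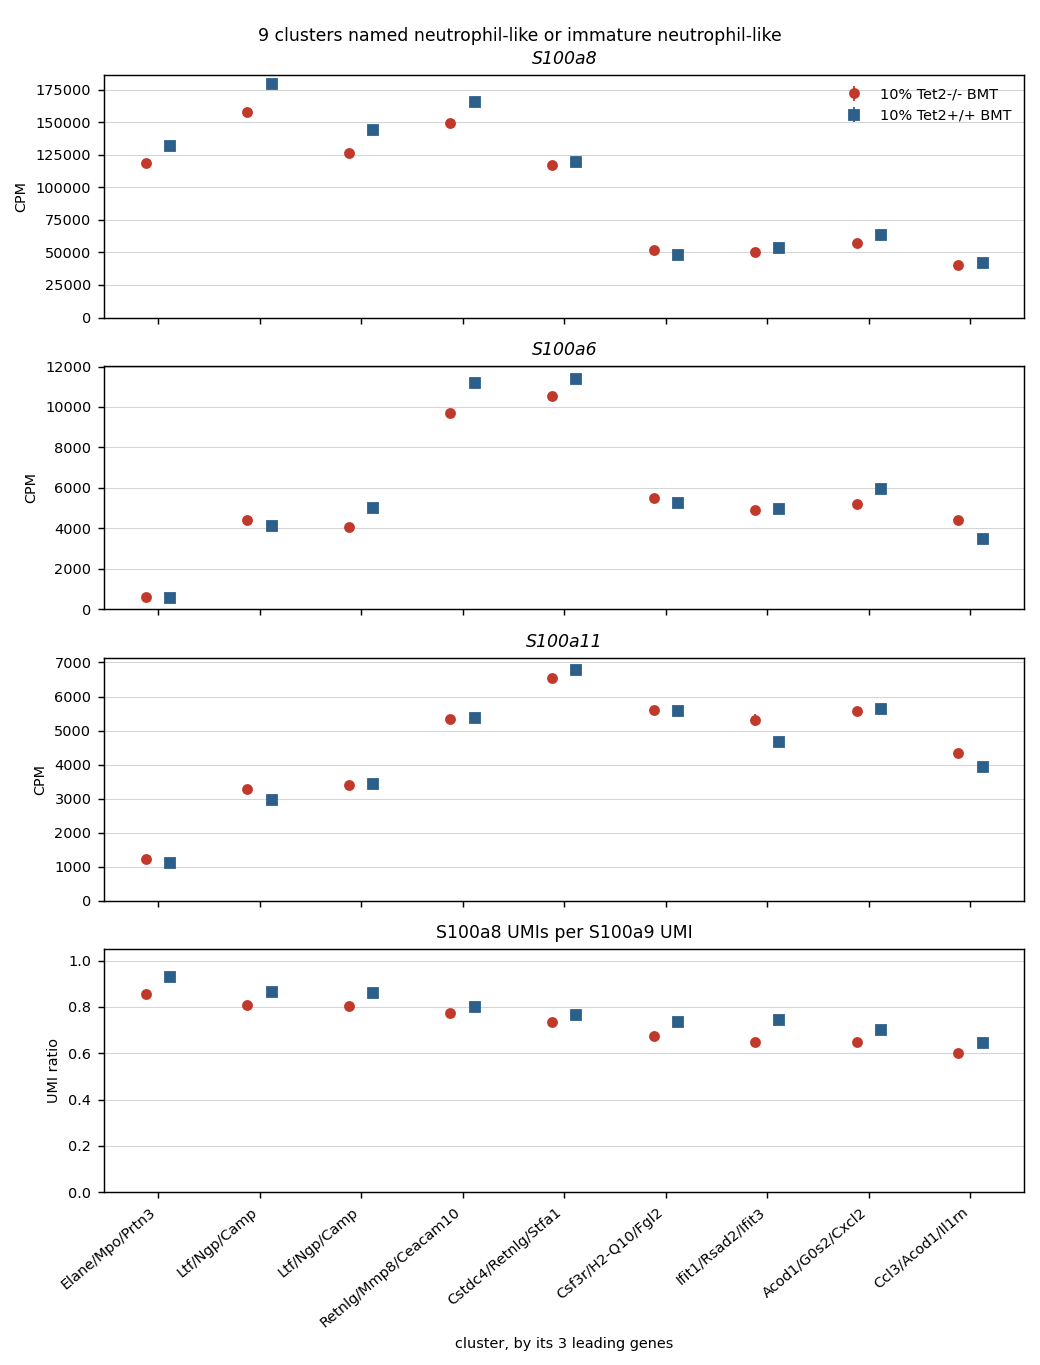
Levels of S100a8, S100a6 and S100a11 (CPM, linear axes from 0) and the UMI ratio of S100a8 to S100a9 in the 9 neutrophil clusters, named by their 3 leading genes and ordered by that ratio in 10% Tet2-/- BMT; red circles are 10% Tet2-/- BMT and blue squares to their right 10% Tet2+/+ BMT, with exact 95% intervals mostly smaller than the symbols. S100a6 is lowest in the Elane cluster (579 and 554 CPM) and highest in the Cstdc4 cluster (10537 and 11388 CPM), while the ratio is lower in 10% Tet2-/- BMT in each cluster.

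Outside neutrophils, S100a8 was detected in nearly every cell but at very unequal levels. B cell-like cells, which should lack the gene, had an S100a8 UMI in 99.7% of cells of each library at median depths of 6203 and 5750 UMIs in 10% Tet2-/- BMT and 10% Tet2+/+ BMT. With cells thinned to 500 UMIs the share was 55.5% and 64.4% in B cell-like cells, 49.3% and 57.3% in T cell-like cells, 52.6% and 54.0% in monocyte-like cells, 48.9% and 63.2% in macrophage-like cells and 34.3% and 40.1% in dendritic-like cells. The shares in the 3 myeloid classes were below those of B cell-like cells in both libraries. Against T cell-like cells, monocyte-like cells were higher in 10% Tet2-/- BMT and macrophage-like cells in 10% Tet2+/+ BMT, so these shares give no clear order.

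Per-cell medians were low and means were carried by few cells. In monocyte-like cells the median cell had 967 CPM of S100a8 in 10% Tet2-/- BMT and 1059 CPM in 10% Tet2+/+ BMT, against 14693 CPM and 16138 CPM over the summed UMIs of the class. In T cell-like cells the medians were 793 CPM and 1302 CPM against summed levels of 6688 CPM and 10051 CPM. Cells at 10000 CPM or more made up 21.9% of monocyte-like cells in 10% Tet2-/- BMT and 19.2% in 10% Tet2+/+ BMT, 14.9% and 14.6% of T cell-like cells, and 20.1% and 21.9% of B cell-like cells. Those cells were also rich in other neutrophil transcripts. The 10 neutrophil markers summed to 10528 CPM in the S100a8-high T cell-like cells of 10% Tet2-/- BMT against 473 CPM in the rest, and to 10331 CPM against 864 CPM in 10% Tet2+/+ BMT.

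**Figure D3:**
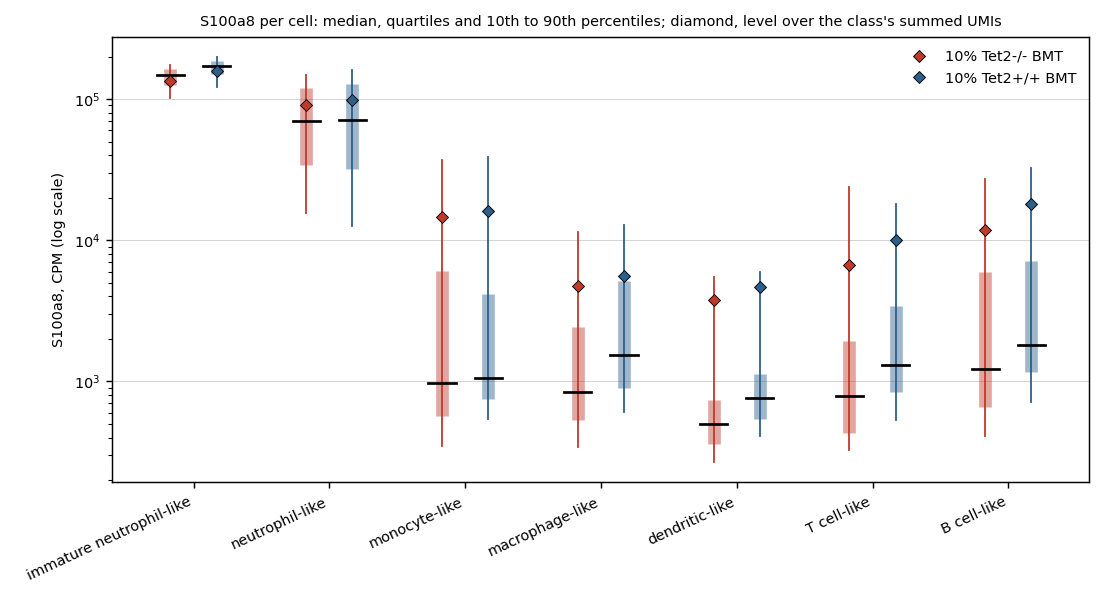
S100a8 per cell in CPM (log axis) for 7 classes, with 10% Tet2-/- BMT in red left of 10% Tet2+/+ BMT in blue; black bars are medians, boxes the quartiles, lines the 10th to 90th percentiles and diamonds the level over the summed UMIs of the class. In the 5 classes outside neutrophils the diamonds lie above the upper quartile, with T cell-like medians of 793 and 1302 CPM below summed levels of 6688 and 10051 CPM.

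Monocyte-like cells held 2 clusters that differed in calprotectin. The cluster led by Ace, Adgre4 and Ear2, genes known from patrolling monocytes, had S100a8 at 35598 CPM in 10% Tet2-/- BMT and 37003 CPM in 10% Tet2+/+ BMT. The cluster led by Fn1, Vcan and Ccr2, genes known from classical monocytes, had 7326 CPM and 5549 CPM. Cells at 10000 CPM or more of S100a8 made up 44.2% and 37.1% of the Ace cluster, and 13.4% and 9.62% of the Fn1 cluster. In those of the Ace cluster the 10 neutrophil markers summed to 10331 CPM and 11769 CPM, against 1260 CPM and 1212 CPM in its rest. As a later choice, cells rich in these markers were left out, at 10117 CPM or more in 10% Tet2-/- BMT and 9346 CPM in 10% Tet2+/+ BMT. S100a8 was then at 26962 CPM and 22451 CPM in the Ace cluster, and at 5586 CPM and 3763 CPM in the Fn1 cluster. At Leiden resolution 2, a cluster led by Ace, Adgre4 and Ltf (51 and 59 cells) was named immature neutrophil-like. Ltf, Camp and Ngp, neutrophil granule genes that monocytes should not express, were at 24.5%, 32.0% and 23.6% of their free level in monocyte-like cells of 10% Tet2-/- BMT and at 38.4%, 40.9% and 38.9% in those of 10% Tet2+/+ BMT, beside 38.4% and 42.3% for S100a8. The part of neutrophil RNA in the S100a8 level of these cells was not tested further.

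S100a6 (calcyclin) and S100a11 (calgizzarin), which bind annexins and take part in membrane and cytoskeletal processes, were highest in neutrophil-like cells. S100a6 was at 7451 CPM (7411 to 7490) there in 10% Tet2-/- BMT and 8292 CPM (8255 to 8330) in 10% Tet2+/+ BMT, 2.51-fold and 2.6-fold above the second class, monocyte-like cells. S100a11 was at 5567 CPM against 5665 CPM, 2.38-fold and 2.36-fold above immature neutrophil-like cells. Both genes reached their lowest level of the 7 classes in macrophage-like cells, with S100a6 at 885 CPM against 1260 CPM and S100a11 at 533 CPM against 704 CPM. Neighbours in the order that did not differ beyond counting error were dendritic-like and T cell-like cells for S100a6 in 10% Tet2-/- BMT and dendritic-like and monocyte-like cells for S100a11 in 10% Tet2+/+ BMT.

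Across all 9 neutrophil clusters, S100a6 and S100a11 did not follow S100a8. Within neutrophil-like cells, S100a6 did go with S100a8. Their per-cell Spearman correlation after thinning was 0.479 in 10% Tet2-/- BMT and 0.539 in 10% Tet2+/+ BMT. In immature neutrophil-like cells it was 0.0642 and 0.0327. In the Elane cluster, where S100a8 was already among its higher levels, S100a6 was at 579 CPM in 10% Tet2-/- BMT and 554 CPM in 10% Tet2+/+ BMT, and S100a11 at 1216 CPM and 1119 CPM. The Cstdc4, Retnlg and Stfa1 cluster had the highest levels of both, with S100a6 at 10537 CPM and 11388 CPM and S100a11 at 6548 CPM and 6788 CPM. S100a6 spanned 18.2-fold across the 9 clusters in 10% Tet2-/- BMT and 20.6-fold in 10% Tet2+/+ BMT, S100a11 5.39-fold and 6.07-fold. In the Ccl3 cluster S100a6 was back at 4398 CPM and 3445 CPM, and S100a11 stayed at 4332 CPM and 3916 CPM. The unnamed cluster led by Siglecf, Ltc4s and Igfbp6, whose best marker list was neutrophil, had little S100a6, at 1167 CPM in 10% Tet2-/- BMT and 1278 CPM in 10% Tet2+/+ BMT, beside S100a8 at 33620 CPM and 36278 CPM.

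S100a4, a partner of non-muscle myosin known for roles in cell motility, and S100a10, which joins annexin A2 at the cell surface and binds plasminogen, showed the opposite pattern. In neutrophil-like cells S100a4 was at 30.2 CPM (27.8 to 32.8) in 10% Tet2-/- BMT and 33.0 CPM (30.7 to 35.5) in 10% Tet2+/+ BMT, 0.042 and 0.0482 times its free level of 719 CPM and 685 CPM. S100a10 was at 11.3 CPM and 16.4 CPM, 0.036 and 0.0494 times its free level. Neutrophil-like cells thus held far less of both transcripts than the free RNA around them. Thinned to 500 UMIs, 2.07% and 1.74% of neutrophil-like cells had an S100a4 UMI.

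The highest S100a4 level of the 7 classes was in monocyte-like cells, at 2860 CPM (2830 to 2890) in 10% Tet2-/- BMT and 2373 CPM (2347 to 2400) in 10% Tet2+/+ BMT, and 70.5% and 61.2% of thinned cells had a UMI. Dendritic-like cells followed at 2056 CPM and 1843 CPM, then T cell-like cells at 1374 CPM and 1054 CPM, macrophage-like cells at 655 CPM and 744 CPM, and B cell-like cells at 552 CPM and 282 CPM. All 7 classes held the same places in both libraries. S100a4 spanned 105-fold between classes in 10% Tet2-/- BMT and 146-fold in 10% Tet2+/+ BMT, the widest span of the 6 genes.

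S100a10 was highest in T cell-like cells, at 660 CPM (631 to 691) in 10% Tet2-/- BMT and 640 CPM (616 to 666) in 10% Tet2+/+ BMT. In 10% Tet2-/- BMT monocyte-like cells came next at 601 CPM, while in 10% Tet2+/+ BMT dendritic-like cells came next at 613 CPM, a level that T cell-like cells did not exceed beyond counting error. S100a10 and S100a4 were both low in neutrophils, and B cell-like cells ranked below the other 4 classes outside neutrophils for both. For S100a10 in 10% Tet2-/- BMT, macrophage-like cells (269 CPM) did not exceed B cell-like cells (248 CPM) beyond counting error. Yet B cell-like cells had S100a10 detected in more cells, 68.8% in 10% Tet2-/- BMT and 66.5% in 10% Tet2+/+ BMT, than S100a4, 26.0% and 20.5%.

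The 4 classes with under 100 cells in a library are described only. Osteoclast-like cells (38 cells of 10% Tet2-/- BMT and 26 of 10% Tet2+/+ BMT), which resorb bone, had the highest S100a4 and S100a10 levels of any class, at 5328 CPM and 4375 CPM for S100a4 and 1925 CPM and 1624 CPM for S100a10. They also had the lowest S100a8, at 1256 CPM and 2924 CPM, 0.0329 and 0.0767 times its free level. NK cell or ILC-like cells had S100a10 at 899 CPM and 1089 CPM, above T cell-like cells, and S100a4 at 445 CPM and 244 CPM. Mast cell or basophil-like cells (10 and 37 cells) had S100a10 at 1004 CPM and 981 CPM. Epithelial-like cells (34 and 45 cells) had S100a8 at 35725 CPM and 25343 CPM but medians per cell of 2153 CPM and 6700 CPM, and S100a4 at 76.5 CPM and 60.3 CPM.

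Each gene was also compared with free RNA by a size rule of 1.5-fold. Of 84 gene, class and library values, 22 lay above free RNA and 43 below. Over all eligible genes the shares were 24.5% above and 25.3% below, so the part of S100 values above free RNA was close to that of other genes, while the part below it was larger. Values below free RNA included all those of S100a8 and S100a9 outside neutrophils. The 22 were S100a8 and S100a9 in both neutrophil classes, S100a6 and S100a11 in neutrophil-like cells, S100a4 in monocyte-like, dendritic-like and T cell-like cells, and S100a10 in T cell-like cells of both libraries, in monocyte-like cells of 10% Tet2-/- BMT and in dendritic-like cells of 10% Tet2+/+ BMT.

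The 10% Tet2-/- BMT library was then set against the 10% Tet2+/+ BMT library within each class. Of 42 gene and class pairs, 38 were eligible, with 50 CPM or more in a library and 100 UMIs or more over both. By a size rule of 1.5-fold on the log2 ratio (pseudocount 10 CPM), 1 pair was higher in 10% Tet2-/- BMT, 2 were lower and 35 lay between. Over all eligible genes of the 7 classes, 1.61% of pairs were higher and 1.32% lower. No member passed 1.5-fold in neutrophil-like, immature neutrophil-like, monocyte-like, macrophage-like or dendritic-like cells, where 5%, 3.76%, 1.79%, 2.34% and 2.17% of all eligible genes did in either direction, against 3.25% in T cell-like and 2.84% in B cell-like cells.

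In neutrophils the 4 eligible S100 genes all had ratios below 1 and inside the size rule. S100a8 had a ratio of 0.847 (0.845 to 0.848) in immature neutrophil-like cells and 0.915 (0.913 to 0.917) in neutrophil-like cells, and S100a9 of 0.903 (0.902 to 0.905) and 0.974 (0.973 to 0.976). S100a11 was at ratios of 0.977 and 0.983. Within the 6 neutrophil-like clusters the S100a8 ratio ran between 0.898 and 1.07, and with the clusters given the same shares in both libraries it was 0.941. With equal shares in immature neutrophil-like cells, S100a6 was at 0.998, against 0.849 over the class, and S100a11 at 1.08. S100a8 was then at 0.887 and S100a9 at 0.953. The Elane cluster, low in S100a6, held 328 of 1145 such cells in 10% Tet2-/- BMT and 199 of 960 in 10% Tet2+/+ BMT. Without equal shares, the median log2 ratio of these 4 genes was -0.08 in neutrophil-like cells, beside -0.07 for all eligible genes. In immature neutrophil-like cells it was -0.19 beside 0.14. S100a8 and S100a9 made up 29.8% of UMIs in this class in 10% Tet2-/- BMT and 34.0% in 10% Tet2+/+ BMT. In CPM, their lower share by itself raises all other genes, so these 2 medians are not independent. S100a4 and S100a10 were too low in both classes to be eligible, with ratios of 1.68 (1.44 to 1.97) and 1.37 (1.11 to 1.71) in immature neutrophil-like cells and of 0.914 (0.818 to 1.02) and 0.687 (0.577 to 0.815) in neutrophil-like cells.

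S100a4 in B cell-like cells was the pair that was higher, at 552 CPM (528 to 578) in 10% Tet2-/- BMT and 282 CPM (267 to 298) in 10% Tet2+/+ BMT, a ratio of 1.96 (1.82 to 2.1). In this class, 1.91% of eligible genes were higher. The level came mainly from 1 of 3 clusters. The cluster led by Cd79a, Fcmr and Ebf1, with 63 cells of 10% Tet2-/- BMT and 57 of 10% Tet2+/+ BMT, had S100a4 at 1450 CPM and 1118 CPM, and held 35.1% and 23.1% of the UMIs of the class. The other 2 clusters had 84.1 CPM and 25.8 CPM, and 43.5 CPM and 39.7 CPM. With the clusters given the same shares in both libraries the ratio was 1.35, below the size rule, while without the Cd79a, Fcmr and Ebf1 cluster the log2 ratio was 0.89 and stayed past it. Among Y-carrying cells of both libraries, of which 10% Tet2-/- BMT had 39 in this class, the log2 ratio was -1.28, against 0.94 over all cells. S100a4 was also at a ratio of 1.3 (1.25 to 1.36) in T cell-like cells, where 1.66% of eligible genes were higher, and 1.21 (1.19 to 1.22) in monocyte-like cells, inside the size rule, and at 0.881 in macrophage-like cells.

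S100a8 in T cell-like and B cell-like cells gave the 2 lower pairs. It was at 6688 CPM in 10% Tet2-/- BMT and 10051 CPM in 10% Tet2+/+ BMT in T cell-like cells, a ratio of 0.665 (0.654 to 0.677), and at 11901 CPM and 17986 CPM in B cell-like cells, a ratio of 0.662 (0.654 to 0.67). In these classes 1.59% and 0.936% of eligible genes were lower. S100a9 went the same way, at ratios of 0.704 and 0.754. In CPM, other transcripts abundant in neutrophils did not all differ the same way. In B cell-like cells the granule genes were lower, with Ltf at 273 CPM in 10% Tet2-/- BMT and 558 CPM in 10% Tet2+/+ BMT, Camp at 592 CPM and 1473 CPM, and Ngp at 1044 CPM and 1822 CPM. Retnlg was at 1640 CPM and 1599 CPM, Il1b at 3535 CPM and 3584 CPM, Srgn at 2109 CPM and 2125 CPM, Csf3r at 255 CPM and 299 CPM, G0s2 at 703 CPM and 709 CPM, and Cxcl2 at 2998 CPM and 2080 CPM. In T cell-like cells Camp was at 399 CPM and 680 CPM, Ngp at 380 CPM and 804 CPM and Retnlg at 792 CPM and 1214 CPM, but Ltf at 213 CPM and 194 CPM and Cxcl2 at 1407 CPM and 1297 CPM. Csf3r was at 123 CPM and 191 CPM in T cell-like cells, and G0s2 at 268 CPM and 327 CPM. As a share of its free level, each of these genes was lower in 10% Tet2-/- BMT in both classes. In T cell-like cells Ltf was at 8.31% and 11.4%, and Cxcl2 at 23.7% and 36.7%. Free RNA held Ltf at 2561 CPM and 1703 CPM, and Cxcl2 at 5932 CPM and 3532 CPM. In B cell-like cells Cxcl2 was at 50.5% and 58.9%, but Csf3r differed little, at 42.7% and 43.4%. The S100a8 levels in both classes lay below free RNA, and the part of neutrophil RNA in the differences was not tested further. Without cells rich in neutrophil markers, an alternative chosen after seeing the data, both pairs were lower by more, with log2 ratios of -0.87 in T cell-like and -0.73 in B cell-like cells. With 8% of the cells with the highest doublet scores left out neither pair passed the size rule (log2 ratios of -0.11 in T cell-like and -0.18 in B cell-like cells). Without the Cd79a, Fcmr and Ebf1 cluster the log2 ratio in B cell-like cells was -0.33, against -0.60 with it.

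Some pairs lay just inside the size rule. In macrophage-like cells S100a6 had a ratio of 0.703 (0.681 to 0.725), S100a10 of 0.7 (0.662 to 0.742) and S100a11 of 0.757 (0.727 to 0.789). All 6 genes had ratios below 1 there, with a median log2 ratio of -0.31 beside -0.02 for all eligible genes. The cluster led by C1qa, C1qc and C1qb had all 6 below 1. In the shallow cluster led by Ccl8, Cxcl9 and C1qb (126 and 199 cells) all 6 were above 1, from 1.065 for S100a10 to 2.181 for S100a9. Intervals there reached below 1 for S100a4, S100a10 and S100a11. With a per-cell marker gate, S100a4 and S100a10 in macrophage-like cells were higher by 1.5-fold, and S100a8 and S100a9 lower. S100a10 in dendritic-like cells was at 423 CPM in 10% Tet2-/- BMT and 613 CPM in 10% Tet2+/+ BMT, a ratio of 0.69 (0.649 to 0.734). In monocyte-like cells S100a11 was at 1794 CPM and 1384 CPM, a ratio of 1.3 (1.27 to 1.32).

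**Figure D4:**
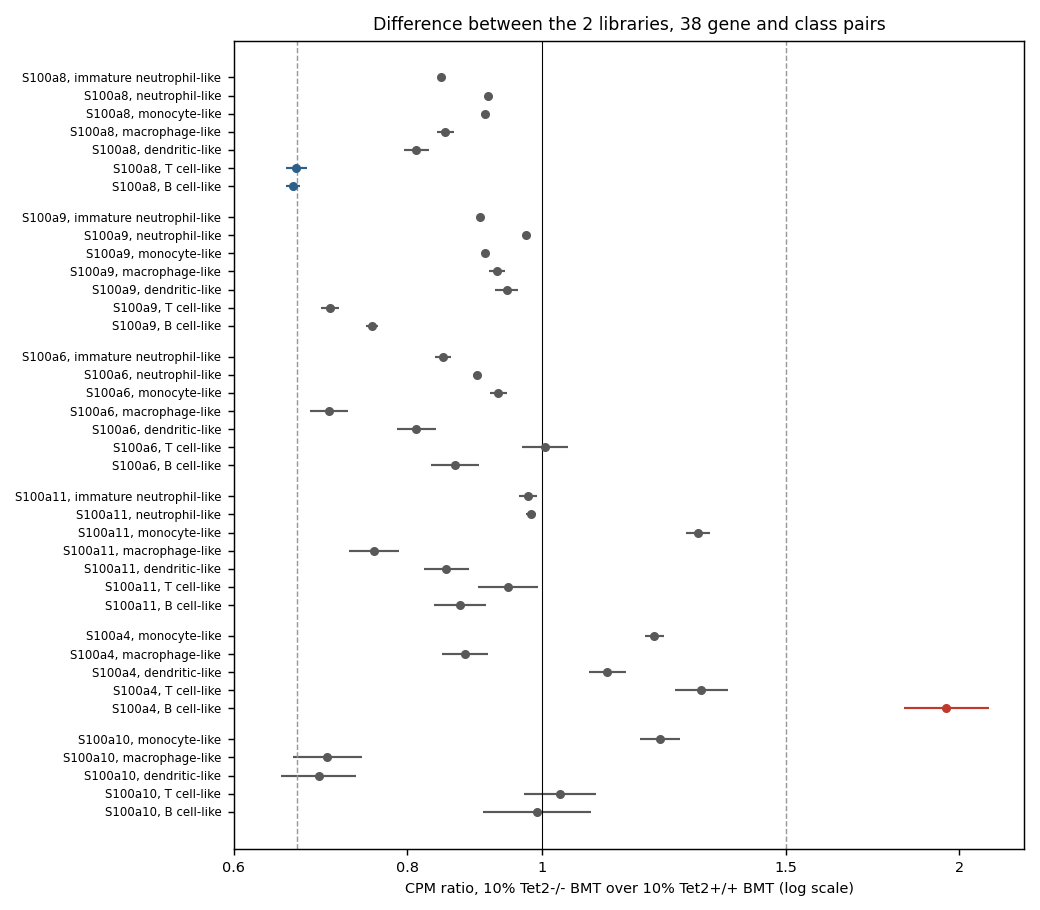
Ratio of CPM, 10% Tet2-/- BMT over 10% Tet2+/+ BMT (log axis), for the 38 eligible gene and class pairs with exact 95% counting intervals; dashed lines mark 1.5-fold either way, with the pair past the rule upward in red and those past it downward in blue. S100a4 in B cell-like cells stands at 1.96, S100a8 in T cell-like and B cell-like cells at 0.665 and 0.662, and the rest lie between the dashed lines.

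Genes that work with the S100 proteins were compared in the same way. Among 8 annexins, membrane-binding proteins of which several pair with S100 dimers, 0 of 37 eligible gene and class pairs were higher in 10% Tet2-/- BMT, 2 were lower and 35 lay between. Anxa2, the partner of S100a10, was lower in macrophage-like cells at 230 CPM in 10% Tet2-/- BMT and 379 CPM in 10% Tet2+/+ BMT, in a class where 1.58% of eligible genes were lower. Anxa1 was lower in dendritic-like cells, where 1.22% were, at 242 CPM and 369 CPM. Anxa2 did not share the absence of S100a10 from neutrophils: it was at 1105 CPM and 1015 CPM in neutrophil-like cells, its highest level of the 7 classes.

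Receptors and signalling genes of S100a8 and S100a9 gave 30 eligible pairs, of which 2 were higher, 0 lower and 28 between. Both higher pairs were Cd14, the co-receptor of TLR4, at 1985 CPM in 10% Tet2-/- BMT and 1252 CPM in 10% Tet2+/+ BMT in neutrophil-like cells and at 433 CPM and 237 CPM in immature neutrophil-like cells. In these classes 2.59% and 3.14% of eligible genes were higher. Cd14 also differed in free RNA, at 1014 CPM and 620 CPM (1.63-fold), beside 1.59-fold in neutrophil-like and 1.83-fold in immature neutrophil-like cells. Cd14 was also among the 10 leading genes of the Acod1, G0s2 and Cxcl2 cluster. That cluster held 919 of 4108 neutrophil-like cells of 10% Tet2-/- BMT and 716 of 5001 of 10% Tet2+/+ BMT. The part of free RNA and of cluster shares in the neutrophil values was not tested. For the plasminogen system around S100a10, 1 of 21 pairs was higher, Ahnak in B cell-like cells at 210 CPM and 134 CPM, and 1 was lower, Anxa2 as above. In B cell-like cells 1.91% of eligible genes were higher. The Cd79a, Fcmr and Ebf1 cluster held 35.1% and 23.1% of the UMIs of this class, and the part of cluster shares in the Ahnak value was not tested. Plaur, the urokinase receptor, was at 269 CPM and 342 CPM in monocyte-like cells, inside the size rule. None of the 69 pairs of intracellular partners of S100a4 and S100a6 passed the size rule, Myh9, the myosin heavy chain that S100a4 binds, being at 408 CPM and 354 CPM in monocyte-like cells. Among the other S100 genes, S100a13 was eligible in all 7 classes and S100a1 in 2, and none passed the size rule. S100a13 was at 63.1 CPM and 70.7 CPM in neutrophil-like cells and at 194 CPM and 173 CPM in monocyte-like cells.

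Across the 22 levels of 11 classes in 2 libraries, S100a8 and S100a9 had a Pearson correlation of 0.996 and S100a10 was inversely related to S100a8, at -0.917. These are descriptions, since classes of 1 library share its free RNA and its depth. Among 5679 genes, those most like S100a8 were Lcn2 (0.982), Ly6g (0.969) and Dhrs7 (0.966), and those most like S100a9 were Lcn2 (0.978), Trem3 (0.976) and Dhrs7 (0.97). S100a4 was closest to Psmd8 (0.952), Ifi30 (0.949) and Piezo1 (0.945), and S100a10 to Pabpc1 (0.956), Sept11 (0.94) and Ube2q1 (0.934). S100a6 was closest to Rasgrp4 (0.896), Chp1 (0.884) and Cpne1 (0.868), and S100a11 to Adam8 (0.943), R3hdm4 (0.922) and Lmnb1 (0.907). S100a6 and S100a11, which lie in different groups on the chromosome, had a correlation of 0.873.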

How the data were processed

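The members and gene lists were chosen with earlier results of these data known. The deposited files hold raw UMI counts per gene and barcode, empty barcodes included, and so have no normalization by the authors. Per the submitters' processing notes reads were counted with Cell Ranger 6.1.2 on mm10, while the header of the deposited count matrices names another release. Per the labels the Chromium Next GEM 3' kit was used, with about 20000 cells loaded. The libraries held 93919724 and 100782700 UMIs (10% Tet2-/- BMT, then 10% Tet2+/+ BMT).

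Cells had at least 500 UMIs, at least 250 genes and at most 10% mitochondrial UMIs, which removed 248 and 489 of 9844 and 12161 barcodes. Free RNA was profiled in 60149 and 57069 barcodes with 51 to 200 UMIs. Python 3.11.15 (numpy 2.4.6, scipy 1.17.1, pandas 2.3.3, leidenalg 0.10.2) was used. Cells were clustered on 2000 variable genes without S100 genes (30 components, 20 neighbours, Leiden resolution 1), and clusters were named from 17 marker lists by at least 3 markers in 10% of cells with a log2 excess of 0.5. Scrublet (scanpy 1.11.5) marked 0 cells in each library, so it did not work and doublets remain. UMIs were summed per class and library and scaled to CPM. Intervals are exact Poisson for levels, exact conditional binomial for ratios and Clopper-Pearson for shares, at 95%; UMIs remove amplification copies, and intervals cover counting error only. With 1 library per group there was no test. The comparison was tested on simulated Poisson counts. Named genes are the 6 members, up to 4 list genes with the largest ratios in neutrophil-like or monocyte-like cells (Anxa1 and S100a5 fall outside this rule and were named after their values were seen), and the 3 genes most correlated with each member. Sequences are from RefSeq (GRCm38.p6) and positions from GENCODE M21. Alternatives covered cell filters, doublet scores, clustering, gating, scaling, thinning, subtraction of free RNA, the pseudocount, the minimum level and sex-typed cells.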

Additional observations from a re-analysis of the deposited data

Results flagged for a closer look

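Unnamed clusters with at least 100 cells in each library take part in no comparison above, and 6 of their S100 values lay past 1.5-fold. In the shallow cluster led by Jchain, Alas2 and Bpgm (283 cells of 10% Tet2-/- BMT and 498 of 10% Tet2+/+ BMT, median 747 UMIs), S100a4 was at 1294 CPM in 10% Tet2-/- BMT and 491 CPM in 10% Tet2+/+ BMT, a ratio of 2.63. Of all 990 eligible genes in this cluster, 7.07% were higher and 12.0% lower by 1.5-fold, the highest shares of the 4 unnamed clusters compared. S100a10 was at 427 CPM and 175 CPM there, a ratio of 2.44. S100a8, S100a9 and S100a11 had ratios of 0.664, 0.657 and 0.618 in that cluster. In the deep cluster led by the cell cycle genes Stmn1, Pclaf and Top2a (277 cells and 142 cells), S100a8 was at 11351 CPM and 5920 CPM, a ratio of 1.92, where 1.15% of 3032 eligible genes were higher. The unnamed clusters led by Siglecf, Ltc4s and Igfbp6 and by Obp1a, Obp1b and Obp2a had 0 of 4 eligible S100 genes past 1.5-fold, beside 2.76% and 7.09% of all eligible genes.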

How the results depend on the processing

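No paired analysis was possible because each group has 1 library. In all, 19 alternatives were listed at the start and 4 were chosen after seeing the data. Against 1 pair higher in 10% Tet2-/- BMT, 4 were higher with a per-cell marker gate and 4 with free RNA subtracted. With Y-carrying cells of both libraries 2 were higher, neither being S100a4 in B cell-like cells. With free RNA subtracted, the 4 included S100a8, S100a9 and S100a11 in monocyte-like cells. There 26.49% of the free level was taken off in 10% Tet2-/- BMT and 39.63% in 10% Tet2+/+ BMT. S100a9 itself was at 37.81% of its free level in the latter. In neutrophil-like cells 7.849% and 14.65% were taken off, beside S100a4 at 0.042 and 0.0482 times its free level. The subtraction can thus remove more than a whole level, so its calls in either direction carry no weight. Against 2 pairs lower, 1 was lower with Leiden resolution 2 and with S100 genes kept in clustering, S100a8 in T cell-like cells. The same held, as a later choice, without the deepest B cell-like cluster. Neither pair was lower without the 8% of cells scored most doublet-like, with Leiden resolution 0.5 or with free RNA subtracted. The 1 lower pair was then S100a6 in macrophage-like cells in the first case and S100a8 in dendritic-like cells in the others. There were 0 lower pairs with median-of-ratios scaling, the mean of per-cell CPM and cells thinned to 500 UMIs. There were 4 with the per-cell gate, among them S100a8 in T cell-like but not B cell-like cells. Without cells rich in neutrophil markers (a later choice) there were 4, both original pairs among them. Y-carrying cells of both libraries gave 13, neither original pair among them. Dendritic-like cells of 10% Tet2-/- BMT numbered 5 there, monocyte-like cells 19, immature neutrophil-like cells 31 and B cell-like cells 39. The share of all eligible genes past 1.5-fold was not taken under the alternatives. These counts of pairs are therefore no result about S100 genes beside other genes. The count above free RNA stayed between 17 and 23. The class with the highest level was unchanged for 12 of 12 gene and library values under every alternative but 2, for 11 after thinning and for 6 with the per-cell gate. The ratio of S100a8 to S100a9 was lower in 10% Tet2-/- BMT in 5 to 7 of 7 classes.

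Of the called values, 2 reversed. S100a4 in B cell-like cells had a log2 ratio of -1.28 with Y-carrying cells of both libraries, and was higher by 1.5-fold under 21 of the 22 alternatives that bear on it. S100a8 in B cell-like cells was at 0.16 with the per-cell gate, and passed 1.5-fold under 11 of 22. S100a8 in T cell-like cells passed under 14 of 22, with log2 ratios between -0.87 and -0.08. The cause was not tested. Free RNA limits levels of S100a8 and S100a9 outside neutrophils at any depth here, and 1 library per group limits every difference between groups.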

Other observations

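In the cell cycle cluster led by Stmn1, Pclaf and Top2a there were 1.23 S100a8 UMIs per S100a9 UMI (1.22 to 1.24) in 10% Tet2-/- BMT and 0.905 (0.889 to 0.922) in 10% Tet2+/+ BMT. It was the only one of 29 clusters with a ratio above 1, and that in 10% Tet2-/- BMT alone. S100a10 was at 1411 CPM and 1439 CPM in this cluster, above all 7 classes compared. In the cluster led by Arg1, Spp1 and Ccl22, with 317 cells of 10% Tet2-/- BMT and 82 of 10% Tet2+/+ BMT, S100a4 was at 2493 CPM and 2062 CPM and S100a10 at 1135 CPM and 743 CPM. S100a5, an S100 gene outside the 6, was at 27.8 CPM in epithelial-like cells of 10% Tet2-/- BMT and 923 CPM in those of 10% Tet2+/+ BMT. These were only 34 and 45 cells, in a cluster led by Bpifb9b, Wfdc18 and Bpifb9a, so the values are described only.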
